A study of Mus musculus with 4 samples.

Results

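Transcription factors that set and hold the identity of nephron segments were followed across the zones of normal and ischemic mouse kidney. The 8 genes, chosen by name, were Hnf4a, Pax2, Pax8, Lhx1, Esrrg, Esrrb, Tfap2b and Gata3, of 32285 genes in the tables, and all 8 passed the filter on low counts in the whole sections. Spatial transcriptomics had been run with the Visium platform, in which tissue is laid over barcoded spots that each catch RNA from several cells, on 10 µm sections of left kidney. Normal control sections (n = 2) and sections taken 24 h after 30 min of bilateral ischemia (n = 2) came from male WT C57BL/6J mice of 7 to 8 weeks. All 4 sections lay on 1 slide, and which mouse gave which section was not given, so the p-values below measure the spread between sections, which may be technical.

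The kidney develops under Pax2 and Pax8, paired-box factors of the nephric lineage, and Lhx1, a LIM homeodomain factor of the early nephron. In the adult, Hnf4a is the nuclear receptor that drives the proximal tubule's transport and metabolic programme. Esrrb and Esrrg are estrogen-related receptors that promote mitochondrial genes, Tfap2b is an AP-2 factor of the distal nephron, and Gata3 is a zinc-finger factor of the ureteric bud and collecting duct.

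The members lie on mouse build GRCm38 as follows, with gene bounds from GENCODE. Hnf4a is at chr2:163506808-163572910 on the plus strand, and Pax8 is at chr2:24420560-24475599 on the minus strand. Pax2 is at chr19:44756045-44837871 on the plus strand, and Lhx1 is at chr11:84518284-84525535 on the minus strand. Esrrg is at chr1:187608791-188214885 on the plus strand, and Tfap2b is at chr1:19208914-19238576 on the same strand. Esrrb is at chr12:86361117-86521628 on the plus strand, and Gata3 is at chr2:9857078-9890034 on the minus strand. Esrrb, Tfap2b and Lhx1 overlap no other annotated gene, whereas Hnf4a overlaps 2, Pax8 overlaps 1, Pax2 and Gata3 overlap 3 each, and Esrrg overlaps 4. Antisense genes are among those over Hnf4a, Pax2, Esrrg and Gata3, and the gene over Pax8, Gm13415, lies on the opposite strand. No source read here says whether the counting used the strand, so reads of such pairs may be shared. Some overlaps are on the member's own strand, as for Gata3 and the protein-coding gene 9230102O04Rik, and there strand would not part the reads.

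RefSeq start sites (GRCm38.p6) gave 15 promoter windows for the 8 members, each reaching 250 bases upstream. Letters known to be bound by factors of these families were searched on both strands. GCCNNNGGC, the AP-2 motif, was in 13.7% of 32841 windows of the same length genome-wide. It was in 3 of the 15 member windows, a window each of Esrrg, Gata3 and Pax2. AGATAA, read by GATA factors, was in 9.99% of windows and in 1 of the 15, at the upstream start of Hnf4a. CAAAGTCCA, read by HNF4 (0.384% of windows), and AAGGTCA, read by estrogen-related receptors (4.08%), were in none of the 15. No match overlapped another. The 250 upstream bases of the Gata3 window (chr2:9878601-9878850, minus strand) are shown because the AP-2 letters, in capitals, occur 3 times in them. These bases lie in an intron of the longer Gata3 transcripts and in an exon of the antisense gene Gm13256. The stored sequence began at chr2:9878551, below the bases shown, but only its 250 upstream bases were searched.
Gata3: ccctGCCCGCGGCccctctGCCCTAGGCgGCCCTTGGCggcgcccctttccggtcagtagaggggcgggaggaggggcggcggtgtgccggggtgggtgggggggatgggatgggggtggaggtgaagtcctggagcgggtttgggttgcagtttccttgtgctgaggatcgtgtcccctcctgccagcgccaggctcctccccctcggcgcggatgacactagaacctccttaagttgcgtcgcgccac
These matches are letters in a window, and the tables, which count transcripts per gene, do not tell start sites apart.

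Each section held 2401 to 2682 tissue spots and 25957128 to 44528078 unique molecular identifiers (UMIs), with medians of 8656 to 16162 UMIs a spot, and normal section 1 was the deepest. Every spot was placed in cortex, outer stripe, inner stripe, inner medulla or pelvis by its scores on lists of marker genes that are no members. Cortex took 43.1% to 45.0% of normal and 36.6% to 39.7% of ischemic spots. In the ischemic sections 11 of 14467 genes (0.0760%) differed between inner stripe and inner medulla, against 3104 (21.5%) in the normal ones, so those ischemic zones are hardly distinct. The ischemic pelvis is poorly marked as well: its summed urothelial markers were at 772 and 1073 counts per 1000000 UMIs of the library (CPM), against 5765 and 6244 in normal pelvis, and 28.5% to 28.6% of its spots kept that label without their neighbours' counts. Markers of tubular injury separated the groups as labelled: Havcr1 (logFC = 9.64), Lcn2 (logFC = 8.78) and Krt20 (logFC = 8.64) were all higher in ischemic sections.

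Over whole sections, Hnf4a, Esrrb, Esrrg and Lhx1 were lower in ischemic than in normal kidney and Pax2 and Pax8 were higher, while Tfap2b and Gata3 did not pass the test. That is 6 of 8 members at an adjusted p under 0.05 by edgeR's quasi-likelihood test, beside a background of 60.6% of 15305 genes, so a call of this kind was the rule among all genes. The members' median log2 fold change (logFC, ischemic over normal) was -0.61, and that of all genes was 0.04. Of the genes called, 4737 were higher and 4542 lower. With library size as the scale, without the trimmed mean of M values (TMM) that the CPM below use, the split was 5750 to 2829, the median of all genes moved to 0.31, and no member called in any comparison changed direction.

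Hnf4a stood at 191 and 168 CPM in the normal sections and at 85.4 and 83.0 CPM in the ischemic ones. The groups did not overlap, and the means were 179 ± 16.5 and 84.2 ± 1.65 CPM (SD, n = 2 each). The fall was logFC = -1.09 ± 0.12 (SE, edgeR adjusted p = 5.42e-05), and leaving out any section kept it past the threshold. Proximal tubule markers fell in the same sections: the 6 convoluted-tubule markers, all lower, summed to 3148 and 2722 CPM in normal and to 508 and 470 CPM in ischemic sections, and the 5 straight-tubule markers, all lower, to 2103 and 1451 CPM and to 122 and 126 CPM. Fewer proximal cells in a spot and less RNA per cell cannot be told apart in such sums, here or for any member below.

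Esrrb fell from 15.1 and 17.4 CPM in normal to 5.59 and 7.08 CPM in ischemic sections. This was the change with the smallest adjusted p among members (logFC = -1.36 ± 0.15, edgeR adjusted p = 5.08e-05). Esrrg, the other estrogen-related receptor here, stood at 9.81 and 12.4 CPM in normal and at 5.92 and 5.41 CPM in ischemic sections (logFC = -0.96 ± 0.16, edgeR adjusted p = 0.000638). Both sets of sections were apart for both receptors. The 5 thick-limb markers were all lower too, with summed levels of 4303 and 4172 CPM in normal and 2627 and 2668 CPM in ischemic sections, and their part in the receptors' fall was not tested.

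Lhx1 was scarce, with 45 and 28 UMIs in the normal and 9 and 8 in the ischemic sections. These correspond to 1.22 and 1.01 CPM against 0.26 and 0.28 CPM, with no overlap. It fell by 2.03 on the log2 scale (SE 0.36, edgeR adjusted p = 0.00102), from the fewest counts of any member. Of the 4 distal convoluted tubule markers 3 were lower and none was higher, and their summed level went from 487 and 471 CPM to 130 and 106 CPM.

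Pax2 rose from 2.01 and 2.68 CPM in normal to 4.15 and 4.99 CPM in ischemic sections, on 74 and 74 against 141 and 143 UMIs. Its logFC was 0.97 ± 0.22 (edgeR adjusted p = 0.00421), and the sections of each group lay apart. Pax8 stood at 45.4 and 45.6 CPM in normal sections, which were nearly equal, and at 66.9 and 61.7 CPM in ischemic ones. Its rise was the smaller of the pair (logFC = 0.50 ± 0.10, edgeR adjusted p = 0.00172) and missed the threshold without ischemic section 1 (logFC = 0.45, adjusted p = 0.051).

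Tfap2b gave 12.9 and 15.3 CPM in normal and 16.6 and 17.1 CPM in ischemic sections. The groups did not overlap, yet the difference missed the threshold (logFC = 0.26 ± 0.11, edgeR adjusted p = 0.0722); it passed without normal section 2 (logFC = 0.35, adjusted p = 0.0015), with library size alone (logFC = 0.52, adjusted p = 0.044) and without the filter on low counts (logFC = 0.28, adjusted p = 0.037). Gata3 gave 3.50 and 6.09 CPM in normal and 2.83 and 5.13 CPM in ischemic sections, so that its groups overlapped (logFC = -0.26 ± 0.32, edgeR adjusted p = 0.501). The call on Gata3 rested on single sections: it fell without normal section 1 (logFC = -0.63, adjusted p = 0.0012), whereas the sign turned without normal section 2 (logFC = 0.14) or ischemic section 1 (logFC = 0.12).

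**Figure D1:**
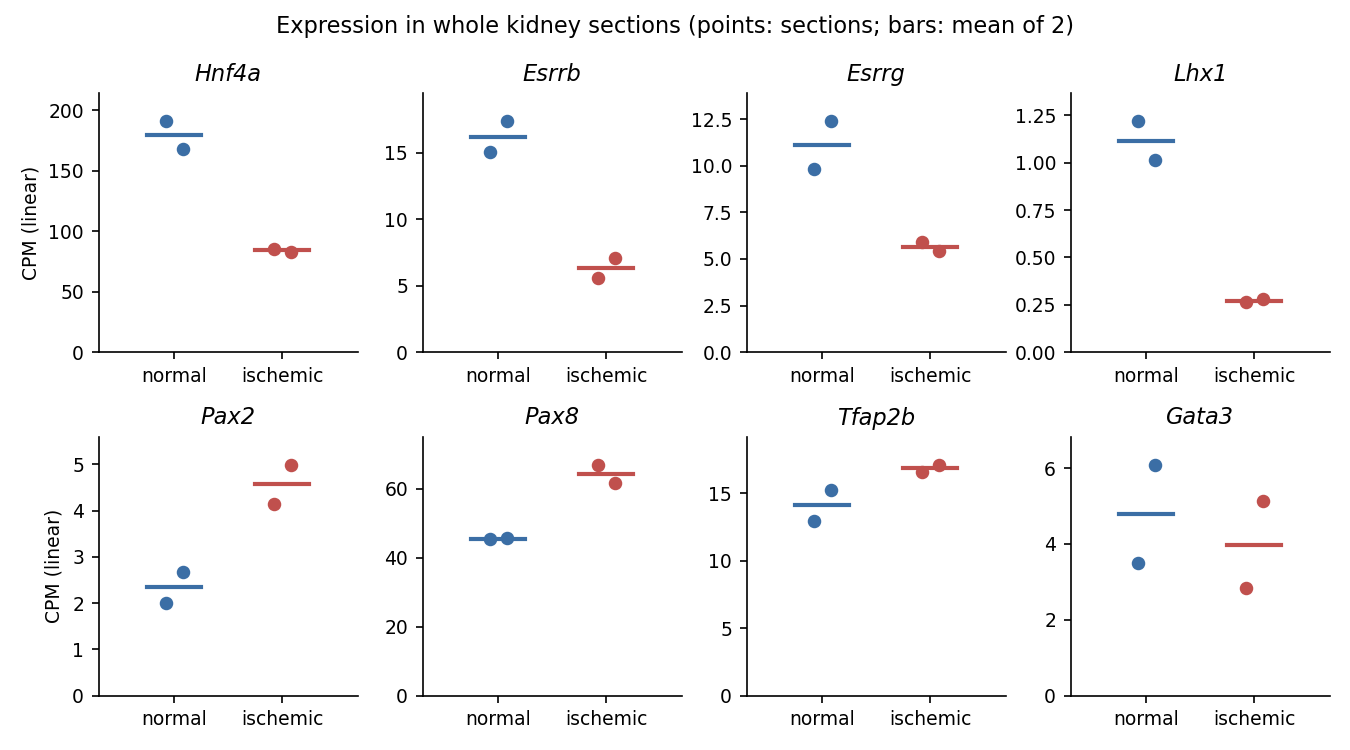
Expression of the 8 members in whole sections, in TMM-scaled CPM on linear axes from 0, with a point for each section and a bar at the mean of 2. Hnf4a, Esrrb, Esrrg and Lhx1 sit lower in both ischemic sections, Pax2 and Pax8 sit higher, and Gata3 overlaps.

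Other segment transcription factors were read from lists that share no gene with the members. Of 8 proximal factors, 6 were lower and none was higher (median logFC = -0.85, all genes 0.04). Among them were Maf (logFC = -1.25), Esrra (logFC = -1.01), the third estrogen-related receptor, and Nr1h3 (logFC = -0.93). Hnf4g, a paralog of Hnf4a named after its value was seen, gave logFC = 0.70 ± 0.48 (edgeR adjusted p = 0.234) and was not called.

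Of 9 factors of the loop and distal nephron, 5 were lower and 3 higher (median logFC = -0.39). Emx1 (logFC = -1.44) and Irx1 (logFC = -1.22) fell the most, whereas Tfap2a, the paralog of Tfap2b, rose (logFC = 1.29) with Sim2 (logFC = 0.81). Of 7 collecting duct factors, 3 were higher and 2 lower (median logFC = 0.20): the epithelial factors Grhl2 (logFC = 1.13), Ehf (logFC = 1.02) and Elf5 (logFC = 0.89) rose, and Foxi1, which specifies intercalated cells, fell (logFC = -0.75). The 5 glomerular factors had logFC between -0.57 and 0.44, and none had an adjusted p under 0.05 by edgeR. Of 5 nephron progenitor factors 3 were tested, and Cited1 rose (logFC = 1.60) while Osr1 fell (logFC = -0.78).

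Markers of other cells moved in the same sections. All 5 neutrophil markers were higher, with summed levels of 1.71 and 2.17 CPM in normal and 162 and 161 CPM in ischemic sections. All 7 T cell markers were lower, from 20.6 and 34.7 CPM to 2.38 and 2.65 CPM. Endothelial markers summed to 203 and 207 CPM in normal and 229 and 243 CPM in ischemic sections, with 3 of 5 higher and 1 lower. Of 6 macrophage markers 4 were lower and 1 higher, and they summed to 183 and 211 CPM in normal and to 140 and 139 CPM in ischemic sections. No marker of these 4 lists was at 0 in any section, and the part of these cells in the members' changes was not tested.

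Neighbouring zones of the normal kidney were compared first, and Hnf4a, Esrrb and Tfap2b each stepped between outer and inner stripe. Levels by zone were set on 1 TMM scale over the 4 zones of the 4 sections, and the steps were tested within sections. From cortex to outer stripe 3 members differed (23.4% of genes), from outer to inner stripe 3 (27.3%), and from inner stripe to inner medulla 6 (21.5%). Hnf4a was level between cortex (231 and 218 CPM) and outer stripe (227 and 228 CPM), with logFC = 0.02 ± 0.16. It then dropped to 153 and 86.0 CPM in the inner stripe (logFC = -0.95 ± 0.17, edgeR adjusted p = 0.000831) and to 93.3 and 47.4 CPM in the inner medulla (logFC = -0.82 ± 0.22, edgeR adjusted p = 0.0134). With zones set from each spot alone that last step shrank to logFC = -0.15 (adjusted p = 0.64).

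Esrrb had its peak in the inner stripe of the normal kidney, the home of the medullary thick ascending limb. It measured 10.2 and 8.02 CPM in cortex, 16.9 and 19.0 CPM in outer stripe, 40.3 and 57.5 CPM in inner stripe and 7.92 and 22.9 CPM in inner medulla. The 3 steps passed the test (logFC = 0.93, 1.42 and -1.52), and the last ranged from -2.36 to -1.33 under the alternatives. Tfap2b, at 12.4 and 13.9 CPM in cortex and 13.4 and 12.7 CPM in outer stripe, rose to 22.6 and 36.0 CPM in inner stripe (logFC = 1.10 ± 0.20, edgeR adjusted p = 0.000882), and its step to the inner medulla did not pass (logFC = -0.75 ± 0.29). Esrrg stayed between 9.96 and 17.1 CPM in the outer 3 zones, whose steps were not called, and dropped to 4.40 and 4.80 CPM in the inner medulla (logFC = -1.50 ± 0.34, edgeR adjusted p = 0.00535); without normal section 2 this step had an adjusted p of 0.07.

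Pax8 was lowest in normal cortex, at 38.6 and 38.3 CPM, and higher in outer stripe, at 59.8 and 53.8 CPM (logFC = 0.56 ± 0.12, edgeR adjusted p = 0.003). The step to the inner stripe, at 53.3 and 48.3 CPM, was not called, and the inner medulla was at 57.2 and 93.3 CPM (logFC = 0.61 ± 0.17, edgeR adjusted p = 0.0148). That last step was carried by normal section 2, without which it was logFC = 0.09. Leaving out ischemic sections, which share the fit's variance, put it at adjusted p = 0.058 and 0.08 and the first step at 0.054 and 0.05. Pax2 was at 1.50 to 2.72 CPM in the outer 3 zones and at 8.80 and 7.46 CPM in inner medulla (logFC = 1.64 ± 0.45, edgeR adjusted p = 0.0153, on 10 and 14 UMIs there); it was not called without normal section 1 (logFC = 1.44, adjusted p = 0.17) or with zones from each spot alone (logFC = 0.16).

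Gata3 was lowest in the normal outer stripe, at 0.846 and 1.37 CPM, against 4.68 and 4.33 CPM in cortex (logFC = -2.07 ± 0.48, edgeR adjusted p = 0.00499). It reached 7.04 and 13.3 CPM in inner medulla (logFC = 2.28 ± 0.63 over the inner stripe, edgeR adjusted p = 0.016; adjusted p = 0.072 without normal section 2) and 24.9 and 49.4 CPM in pelvis, which has its own scale. Lhx1 was at 1.94 and 1.84 CPM in cortex and 0.94 and 0.745 CPM in outer stripe (logFC = -1.14 ± 0.41, edgeR adjusted p = 0.061). It had no UMI in the normal inner medulla, which at 3 counts allows up to 2.64 and 1.60 CPM, above the cortex value in section 1 and below it in section 2.

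**Figure D2:**
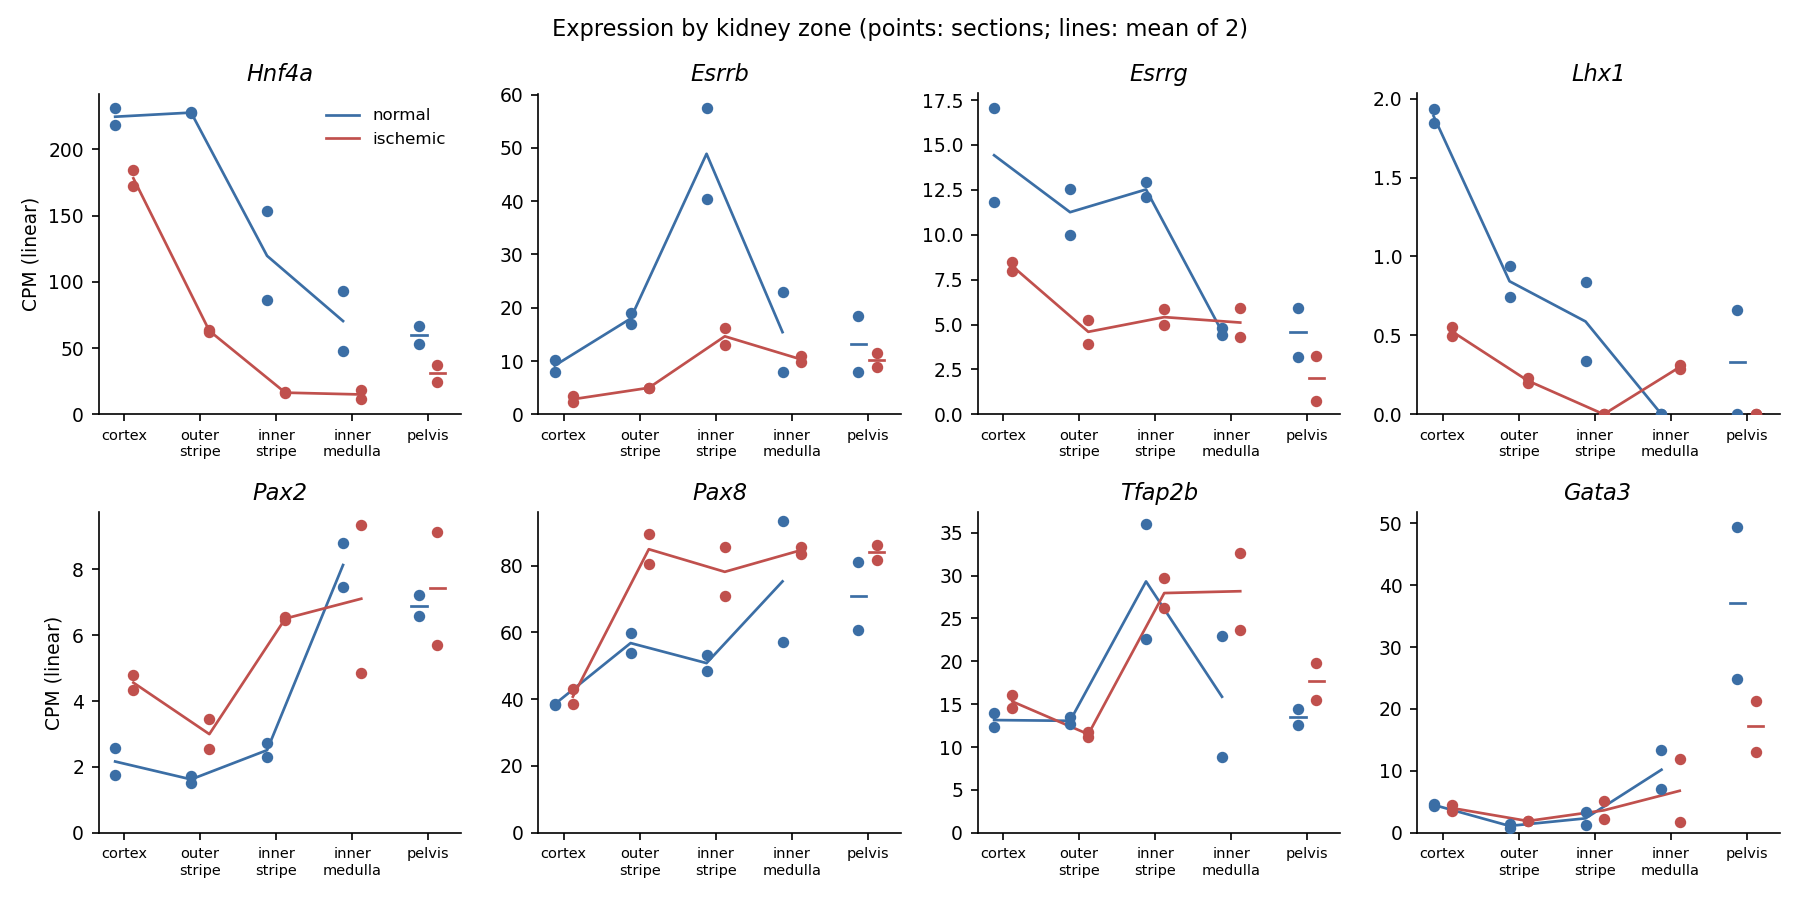
Expression of each member by zone, in TMM-scaled CPM on linear axes from 0, with a point for each section and lines through the mean of 2 in normal (blue) and ischemic (red) kidney; pelvis has its own scale and stands apart. Hnf4a is level from normal cortex to outer stripe and falls between them in ischemic kidney, Esrrb has its peak in the inner stripe, and Pax8 separates by condition in the outer and inner stripe.

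Ischemia against normal was then compared within each zone. In cortex, 5 members were called (49.7% of genes), in outer stripe 5 of 7 tested (67.5%), in inner stripe 5 of 7 (42.8%), in inner medulla 1 of 7 (28.5%) and in pelvis 2 of 5 (25.3%). Hnf4a was the single member called lower in every one of them; the mean of Esrrb was lower in all 5 too, but its test passed in 3. In cortex Hnf4a was 172 and 184 CPM after ischemia against 231 and 218 CPM, with no overlap (logFC = -0.32 ± 0.10, edgeR adjusted p = 0.0155). That call was lost without ischemic section 1 (logFC = -0.26, adjusted p = 0.31), without ischemic section 2 (logFC = -0.36, adjusted p = 0.15), in a joint fit over zones (logFC = -0.33, adjusted p = 0.26) and with library size alone (logFC = -0.12). The convoluted-tubule markers, 5 of 6 lower in cortex, summed there to 6010 and 5345 CPM in normal and to 1078 and 1111 CPM in ischemic sections, and their part in the change of Hnf4a was not tested.

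Deeper zones lost more Hnf4a. The outer stripe stood at 62.0 and 64.0 CPM after ischemia against 227 and 228 CPM (logFC = -1.83 ± 0.10, edgeR adjusted p = 1.65e-12), and the inner stripe at 16.5 and 16.2 CPM against 153 and 86.0 CPM (logFC = -2.86 ± 0.27, edgeR adjusted p = 7.15e-05). In inner medulla it was 18.0 and 11.8 CPM against 93.3 and 47.4 CPM (logFC = -2.19 ± 0.36, edgeR adjusted p = 0.00381). These 3 falls passed under every alternative tried, and no section of 1 group reached the other. Their logFC ranged from -1.95 to -1.46 in outer stripe, -3.26 to -2.06 in inner stripe and -2.65 to -1.62 in inner medulla. The inner medulla took 5.31% and 8.95% of normal spots and 13.1% and 12.6% of ischemic ones. Its own zone markers, 3 of 4 lower and 1 higher, summed there to 5546 and 5148 CPM in normal and 1587 and 2129 CPM in ischemic sections. The thick-limb markers, 2 of 5 lower and none higher, summed there to 2698 and 4129 CPM and to 4499 and 4449 CPM. In pelvis Hnf4a was 24.4 and 37.3 CPM against 66.6 and 52.7 CPM (logFC = -0.93 ± 0.26, edgeR adjusted p = 0.0191), which was lost without normal section 1 (logFC = -0.76, adjusted p = 0.0548) or ischemic section 1 (logFC = -0.65, adjusted p = 0.24), and with DESeq2 (logFC = -0.94, adjusted p = 0.11). The straight-tubule markers summed to 4570 and 3644 CPM in normal and 318 and 337 CPM in ischemic outer stripe. In inner stripe they were at 2939 and 1040 CPM in normal sections, where section 1 was the higher as for Hnf4a, and at 34.9 and 30.8 CPM in ischemic ones, with 5 of 5 lower. The part of these marker levels and spot shares in the falls was not tested.

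**Figure D3:**
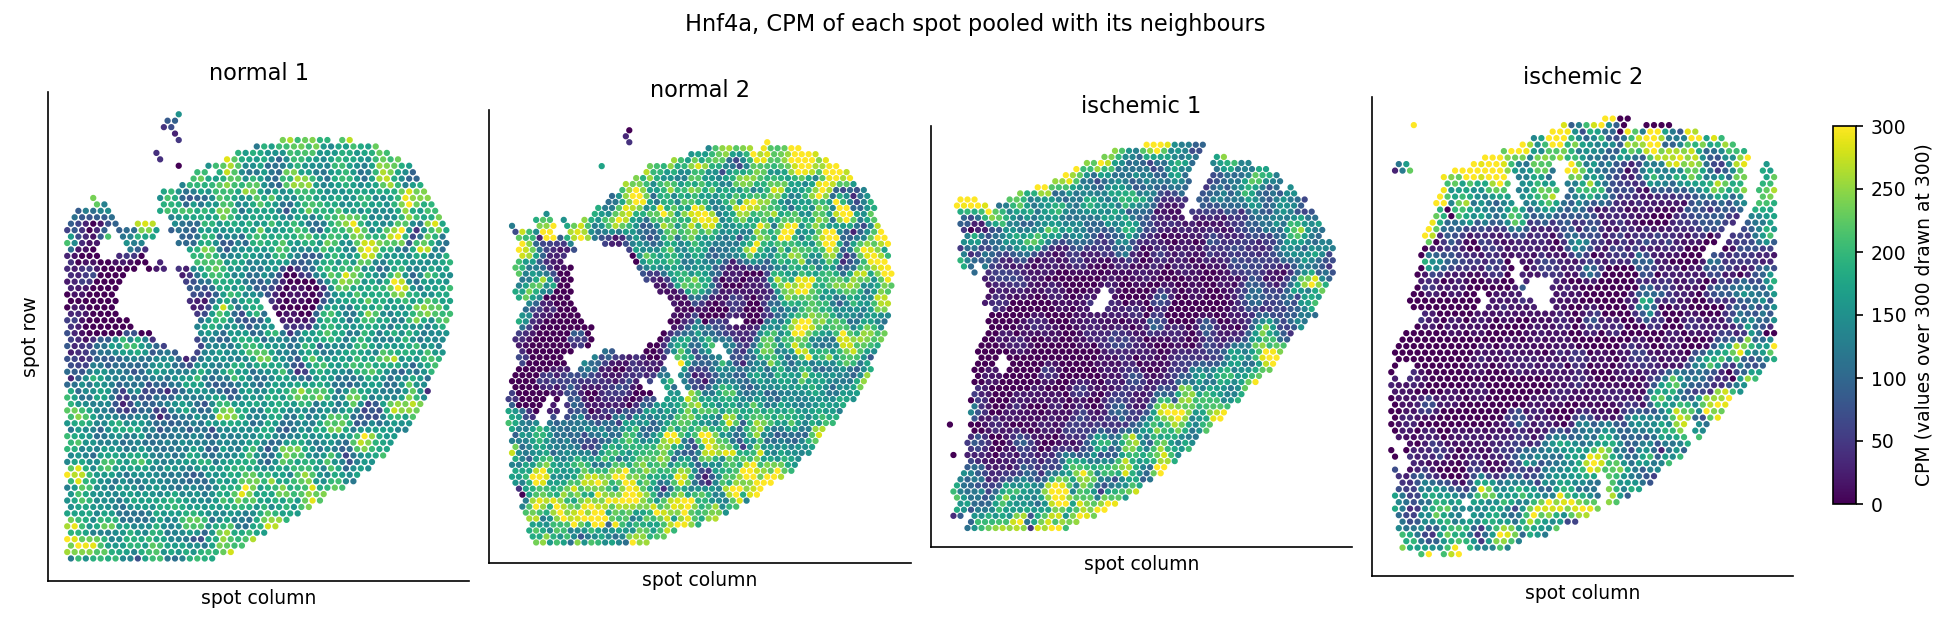
Hnf4a in the 4 sections, each spot coloured by the CPM (library size, no TMM) of its UMIs pooled with those of its nearest neighbours, on a linear scale that stops at 300. In normal sections the level is high from the rim through the outer stripe, and in ischemic sections high values are left near the rim.

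Whether the change differed between zones was tested by an interaction over the 4 zones, which 1 of 8 members passed (32.2% of genes). Hnf4a passed with an edgeR adjusted p of 2.44e-05. Its change was more negative than in cortex by 1.52 on the log2 scale in outer stripe (logFC difference = -1.52 ± 0.23, edgeR adjusted p = 0.000256), where 21.4% of genes were called. The difference was -2.52 ± 0.28 in inner stripe (adjusted p = 1.03e-05, 18.0% of genes) and -1.81 ± 0.33 in inner medulla (adjusted p = 0.0015, 13.7% of genes), and the last was lost without ischemic section 2 (-1.38, adjusted p = 0.12). Under the alternatives the inner stripe difference of Hnf4a ranged from -2.85 to -1.55. The 7 other members were not shown to change unequally among zones, their adjusted p lying between 0.0532 (Pax8) and 0.3 (Gata3). Pax8 passed in 7 of 10 alternatives, among them both that leave out a normal section. It did not pass without ischemic section 1 or 2, nor with DESeq2. Esrrb (adjusted p = 0.0012) and Tfap2b (adjusted p = 0.0044) passed without normal section 2, and both also without the filter on low counts (0.007 and 0.014). Esrrg passed without that filter (adjusted p = 0.038) and with zones from each spot alone (adjusted p = 0.045).

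The estrogen-related receptors fell in each of the 3 outer zones. Esrrb was 2.31 and 3.34 CPM in ischemic cortex against 10.2 and 8.02 CPM (logFC = -1.71 ± 0.24), 4.97 and 4.96 CPM in outer stripe against 16.9 and 19.0 CPM (logFC = -1.82 ± 0.17) and 13.1 and 16.2 CPM in inner stripe against 40.3 and 57.5 CPM (logFC = -1.70 ± 0.23). The edgeR adjusted p were 4.28e-05, 1.21e-08 and 0.000445, and no group overlapped. In inner medulla its sections overlapped, at 9.74 and 10.9 CPM against 7.92 and 22.9 CPM (logFC = -0.68 ± 0.42, edgeR adjusted p = 0.261). It was called there without normal section 1 (-1.11, adjusted p = 0.0019), and its sign turned without normal section 2 (0.36). The summed thick-limb markers of the inner stripe were at 5687 and 5686 CPM after ischemia against 11234 and 12079 CPM.

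Esrrg was 8.50 and 8.01 CPM in ischemic cortex (logFC = -0.76 ± 0.19), 5.27 and 3.92 CPM in outer stripe (logFC = -1.23 ± 0.21) and 4.95 and 5.87 CPM in inner stripe (logFC = -1.18 ± 0.27). Its edgeR adjusted p were 0.00458, 3.55e-05 and 0.007, with no overlap with the normal sections. Its call in inner stripe was lost without ischemic section 1 (logFC = -1.05, adjusted p = 0.077), and with library size alone those in cortex (adjusted p = 0.071) and inner stripe (adjusted p = 0.098) were lost. Lhx1 was tested in cortex alone among the zones, where it fell from 1.94 and 1.84 CPM to 0.495 and 0.556 CPM (logFC = -1.82 ± 0.42, edgeR adjusted p = 0.00251; without ischemic section 1 -1.72, adjusted p = 0.059). It had 0 UMIs in both ischemic inner stripes, which allows up to 0.594 and 0.606 CPM.

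Pax2 passed the test in cortex, outer stripe and inner stripe, and Pax8 in the outer and inner stripe. Pax2 was higher in ischemic cortex, at 4.78 and 4.34 CPM against 1.75 and 2.58 CPM (logFC = 1.13 ± 0.29, edgeR adjusted p = 0.00523; without ischemic section 1 1.05, adjusted p = 0.059). It was also higher in outer stripe, at 2.54 and 3.46 CPM against 1.50 and 1.74 CPM (logFC = 0.91 ± 0.34, edgeR adjusted p = 0.0239), and in inner stripe, at 6.54 and 6.47 CPM against 2.30 and 2.72 CPM (logFC = 1.41 ± 0.36, edgeR adjusted p = 0.0127). These rest on 8 to 58 UMIs a zone and section. The outer stripe call was lost without normal section 1 (0.78, adjusted p = 0.13), ischemic section 2 (0.69, adjusted p = 0.23) or the boundary spots (0.66, adjusted p = 0.13), and with DESeq2 (0.88, adjusted p = 0.18). That of the inner stripe was lost without either ischemic section (1.41 and 1.42, adjusted p = 0.093 and 0.086) or the boundary spots (1.24, adjusted p = 0.086), with zones from each spot alone (0.71, adjusted p = 0.091) and with DESeq2 (1.36, adjusted p = 0.091).

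Pax8 was not called in cortex, where it stood at 42.9 and 38.6 CPM in ischemic and at 38.6 and 38.3 CPM in normal sections (logFC = 0.10 ± 0.10, edgeR adjusted p = 0.425). In outer stripe it rose to 89.4 and 80.3 CPM from 59.8 and 53.8 CPM (logFC = 0.61 ± 0.10, edgeR adjusted p = 1.33e-05), under every alternative. In inner stripe it rose to 85.4 and 70.8 CPM from 53.3 and 48.3 CPM (logFC = 0.64 ± 0.18, edgeR adjusted p = 0.0169), a call lost without ischemic section 1 (0.51, adjusted p = 0.31) or 2 (0.78, adjusted p = 0.09) and with DESeq2 (0.59, adjusted p = 0.11). Whether the 2 paired-box genes differ in where they rose was not tested.

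Tfap2b and Gata3 passed in none of the 4 zones. Tfap2b differed by -0.16 ± 0.15 in outer stripe and by -0.02 ± 0.24 in inner stripe, both of which turned positive with library size alone (0.22 and 0.24), and in inner medulla by 0.74 ± 0.37 (32.6 and 23.7 CPM against 8.80 and 22.9 CPM), where it passed without normal section 2 (1.66, adjusted p = 0.00027). Gata3 differed by 0.85 ± 0.41 in outer stripe (edgeR adjusted p = 0.0716; with library size alone 1.22, adjusted p = 0.018). Without normal section 2 it was called in inner stripe (1.47, adjusted p = 0.042), and without ischemic section 2 in inner medulla (-2.55, adjusted p = 0.019). In pelvis Gata3 was lower after ischemia, at 13.0 and 21.3 CPM against 24.9 and 49.4 CPM with no overlap (logFC = -1.12 ± 0.36, edgeR adjusted p = 0.0372). That call was lost without normal section 2 (-0.53, adjusted p = 0.32) or ischemic section 1 (-0.80, adjusted p = 0.25) and with zones from each spot alone (-0.39), with library size alone (adjusted p = 0.079), in a joint fit over zones (adjusted p = 0.11) and with DESeq2 (adjusted p = 0.16), which called no tested member in pelvis. The urothelial markers of that zone fell with it, as given above. T cell markers summed there to 65.0 and 169 CPM in normal and to 3.26 and 3.81 CPM in ischemic sections. The part of either list in the fall of Gata3 was not tested.

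**Figure D4:**
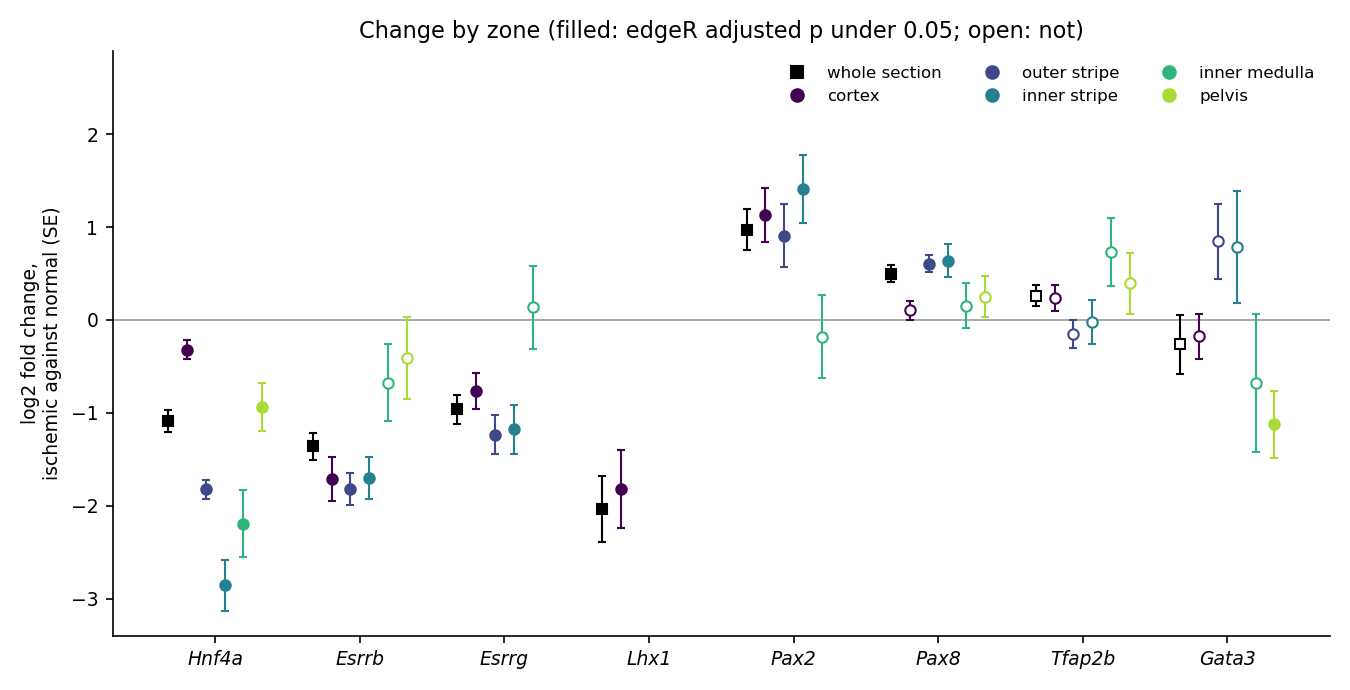
log2 fold change of each member, ischemic over normal, in whole sections (squares) and in each zone (circles), with bars of 1 SE. Filled marks passed the edgeR test; Hnf4a spreads from -0.32 in cortex to -2.86 in inner stripe, whereas Esrrb lies between -1.70 and -1.82 in the 3 outer zones, and a mark is absent where too few counts were left to test.

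Neighbouring zones of the ischemic sections were compared in the same way. From cortex to outer stripe 3 members differed (36.6% of genes), from outer to inner stripe 4 (42.2%), and from inner stripe to inner medulla none, where Hnf4a gave -0.12 ± 0.30. At that step 0 members had an edgeR p under 0.05 before adjustment, and DESeq2 called 18 genes of all. Hnf4a stepped down at once from cortex to outer stripe (logFC = -1.50 ± 0.17, edgeR adjusted p = 5.24e-06) and again to inner stripe (logFC = -1.95 ± 0.22, edgeR adjusted p = 4.86e-06). Pax8 stepped up from cortex to outer stripe (logFC = 1.06 ± 0.12, edgeR adjusted p = 5.86e-06). Esrrg stepped down there (logFC = -0.83 ± 0.19, edgeR adjusted p = 0.00307), though not without ischemic section 1 (adjusted p = 0.072) or 2 (adjusted p = 0.13). Esrrb (logFC = 1.55 ± 0.26) and Tfap2b (logFC = 1.28 ± 0.20) kept their rise into the inner stripe, and Pax2 also rose there (logFC = 1.13 ± 0.30), without ischemic section 1 at adjusted p = 0.2 and without section 2 at 0.056.

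To tie members to tubule segments, the 10% of spots of each section with the highest share of a segment's markers were compared with its other spots. Spots mix cells, so this shows where a gene is rich among spots and not in which cell. In normal sections, 4 of 8 members differed in proximal convoluted tubule-rich spots (26.7% of genes), 5 in proximal straight tubule-rich (35.4%), 4 in thick limb-rich (30.8%), 4 in distal convoluted tubule-rich (20.9%), 6 in collecting duct-rich (29.4%), 4 in intercalated cell-rich (19.2%), 4 in podocyte-rich (19.3%) and 5 in urothelium-rich spots (46.0%). The same counts in ischemic sections were 5 (38.2%), 6 (36.7%), 4 (28.5%), 3 (24.2%), 3 (19.6%), 4 (14.5%), 1 (7.71%) and 2 (6.19%).

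Hnf4a was highest in convoluted tubule-rich spots of normal sections, at 258 and 244 CPM against 177 and 153 CPM elsewhere (logFC = 0.61 ± 0.08, edgeR adjusted p = 3.84e-08). Straight tubule-rich spots were also above the rest, at 218 and 219 CPM against 178 and 150 CPM (logFC = 0.41 ± 0.07, edgeR adjusted p = 5.73e-05; with library size alone 0.13, adjusted p = 0.11). It was low in thick limb-rich (logFC = -1.06 ± 0.10), collecting duct-rich (logFC = -0.98 ± 0.12) and urothelium-rich spots (logFC = -1.48 ± 0.12). Pax8 was low in convoluted (logFC = -0.26 ± 0.10) and high in straight tubule-rich spots (logFC = 0.45 ± 0.09). The first was lost without any 1 section (-0.24 to -0.29, adjusted p from 0.077 to 0.22) and with DESeq2 (-0.24, adjusted p = 0.47), and the second with library size alone (0.18, adjusted p = 0.11). Gata3 was nearly absent from the latter, with 1 and 3 UMIs there (logFC = -3.13 ± 0.49).

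Thick limb-rich spots of normal sections had 58.3 and 58.7 CPM of Esrrb against 11.5 and 13.7 CPM in other spots, the widest gap of a member to its background in that segment (logFC = 2.23 ± 0.12, edgeR adjusted p = 4.61e-15). Tfap2b followed at 35.6 and 36.4 CPM against 11.5 and 13.8 CPM (logFC = 1.52 ± 0.14, edgeR adjusted p = 8.4e-10), and Esrrg was higher too (logFC = 0.45 ± 0.17, edgeR adjusted p = 0.0433), though not without normal section 1 (0.28) or 2 (0.59, adjusted p = 0.054). Lhx1 stood out in distal convoluted tubule-rich spots, at 3.90 and 3.28 CPM against 0.877 and 0.698 CPM (logFC = 2.17 ± 0.45, edgeR adjusted p = 0.0002, on 16 and 11 UMIs). Esrrg (logFC = 0.78 ± 0.17) and Tfap2b (logFC = 0.65 ± 0.15; without normal section 1 0.51, adjusted p = 0.081) were higher there as well. With DESeq2 these 3 calls were lost (adjusted p = 0.072 for Lhx1, 0.099 for Esrrg and 0.073 for Tfap2b), as was that of Esrrg in thick limb-rich spots (0.43).

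Collecting duct-rich spots carried 10.4 and 11.1 CPM of Gata3 against 2.99 and 5.88 CPM elsewhere (logFC = 1.33 ± 0.25, edgeR adjusted p = 0.000142; without normal section 1 0.91, adjusted p = 0.08). Pax2 (logFC = 0.90 ± 0.34), Esrrb (logFC = 0.82 ± 0.14), Tfap2b (logFC = 0.73 ± 0.14) and Pax8 (logFC = 0.44 ± 0.11) were also higher there. Pax2 was not called without normal section 1 (1.20, adjusted p = 0.088) or 2 (0.52, adjusted p = 0.56), nor Pax8 without normal section 2 (0.25, adjusted p = 0.32). Both were lost with DESeq2 (adjusted p = 0.27 and 0.081), and Pax2 also in the top 5% of spots (0.44, adjusted p = 0.61). Gata3 was furthest above the other spots in urothelium-rich ones, at 14.5 and 28.8 CPM against 2.74 and 3.01 CPM (logFC = 2.86 ± 0.24, edgeR adjusted p = 1.34e-08), where Pax2 was higher too (logFC = 1.14 ± 0.35; without normal section 1 0.79, adjusted p = 0.2; with DESeq2 adjusted p = 0.065). Podocyte-rich spots, 71.0% and 73.5% of which lay in cortex, were higher in Gata3 (logFC = 0.74 ± 0.25, with adjusted p = 0.39 and 0.07 without normal section 1 and 2) and lower in Esrrb (logFC = -0.94 ± 0.18). The Gata3 gap was 0.22 in the top 5% of spots (adjusted p = 0.77) and was not called with DESeq2 (adjusted p = 0.41).

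Most segment lists fell after ischemia, so marker-rich spots of the 2 conditions are not the same kind of spot, and differences between conditions were tested as an interaction. Hnf4a differed in 5 segments. In convoluted tubule-rich spots it was at 175 and 198 CPM against 71.8 and 65.0 CPM in other ischemic spots (logFC = 1.44 ± 0.08), a gap wider than in normal sections by 0.83 ± 0.11 (edgeR adjusted p = 4.01e-07). In straight tubule-rich spots it turned from above to below the rest, at 55.6 and 55.7 CPM against 83.6 and 80.4 CPM (logFC = -0.56 ± 0.09, difference -0.97 ± 0.11, edgeR adjusted p = 5.43e-07). Members that differed numbered 2 in convoluted (15.1% of genes), 2 in straight (20.4%), 2 in thick limb-rich (6.77%), 1 in distal convoluted (10.5%), 1 in collecting duct-rich (3.09%) and 3 in urothelium-rich spots (20.8%).

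Hnf4a in thick limb-rich spots fell further, to 24.5 and 22.8 CPM (difference -0.98 ± 0.17, edgeR adjusted p = 0.000267), and in distal convoluted tubule-rich spots, 88.1% or more of which lie in cortex, it was above the other spots (logFC = 0.56 ± 0.09; without ischemic section 2 0.34, adjusted p = 0.12), unlike in normal sections (difference 0.76 ± 0.12, edgeR adjusted p = 1.14e-05). Those 4 differences passed in all 8 alternatives, and the one in urothelium-rich spots (0.78 ± 0.17) in 4 of 8. It fell to 0.14 in the top 5% of spots (adjusted p = 0.81) and to 0.49 with library size alone (adjusted p = 0.06), and it was not called without ischemic section 1 (adjusted p = 0.1) or 2 (adjusted p = 0.087). Esrrb remained higher in thick limb-rich spots after ischemia, at 13.2 and 20.1 CPM against 4.99 and 5.98 CPM (logFC = 1.58 ± 0.19, edgeR adjusted p = 1.02e-07), with a difference from normal of -0.64 ± 0.20 that missed the threshold (edgeR adjusted p = 0.052). Tfap2b likewise remained higher there, at 27.8 and 38.5 CPM against 16.2 and 15.7 CPM (logFC = 1.03 ± 0.14). In intercalated cell-rich spots the gap of Tfap2b ranged over the alternatives from 0.67 to 0.95 in normal and 0.59 to 0.87 in ischemic sections. That of Gata3 ranged from 0.33 to 1.52 in normal and 1.55 to 1.86 in ischemic sections. Hnf4a was lower in those spots in both conditions, and Pax8 in the ischemic sections.

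Gata3 in collecting duct-rich spots of ischemic sections was 12.1 and 18.5 CPM against 1.93 and 3.96 CPM (logFC = 2.40 ± 0.24, edgeR adjusted p = 5.99e-08), and the difference from normal, 1.07 ± 0.33, missed the threshold (edgeR adjusted p = 0.078). Its gap in urothelium-rich spots narrowed (logFC difference = -1.45 ± 0.35, edgeR adjusted p = 0.00644), past the threshold in 4 of 8 alternatives and not without normal section 2 (-0.98, adjusted p = 0.098), ischemic section 1 (adjusted p = 0.069) or ischemic section 2 (adjusted p = 0.054), nor in the top 5% of spots (-0.88, adjusted p = 0.21). Pax8 lost ground in convoluted tubule-rich (-0.52 ± 0.14) and collecting duct-rich spots (-0.57 ± 0.15) and gained in thick limb-rich ones (0.45 ± 0.12), past the threshold in 4, 4 and 2 of 8 alternatives. The first was lost without normal or ischemic section 1 (adjusted p = 0.09 and 0.13), the second without normal section 1 or 2 (-0.75 and -0.38, adjusted p = 0.12 and 0.55), and the third without normal section 1 or either ischemic section (adjusted p = 0.12, 0.41 and 0.2). Esrrg in straight tubule-rich spots (-0.96 ± 0.33) and Esrrb in urothelium-rich spots (1.05 ± 0.30) passed in 2 of 8 each, and each was lost without normal section 1, ischemic section 1 or ischemic section 2 (adjusted p from 0.1 to 0.21 for Esrrg and from 0.073 to 0.2 for Esrrb).

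**Figure D5:**
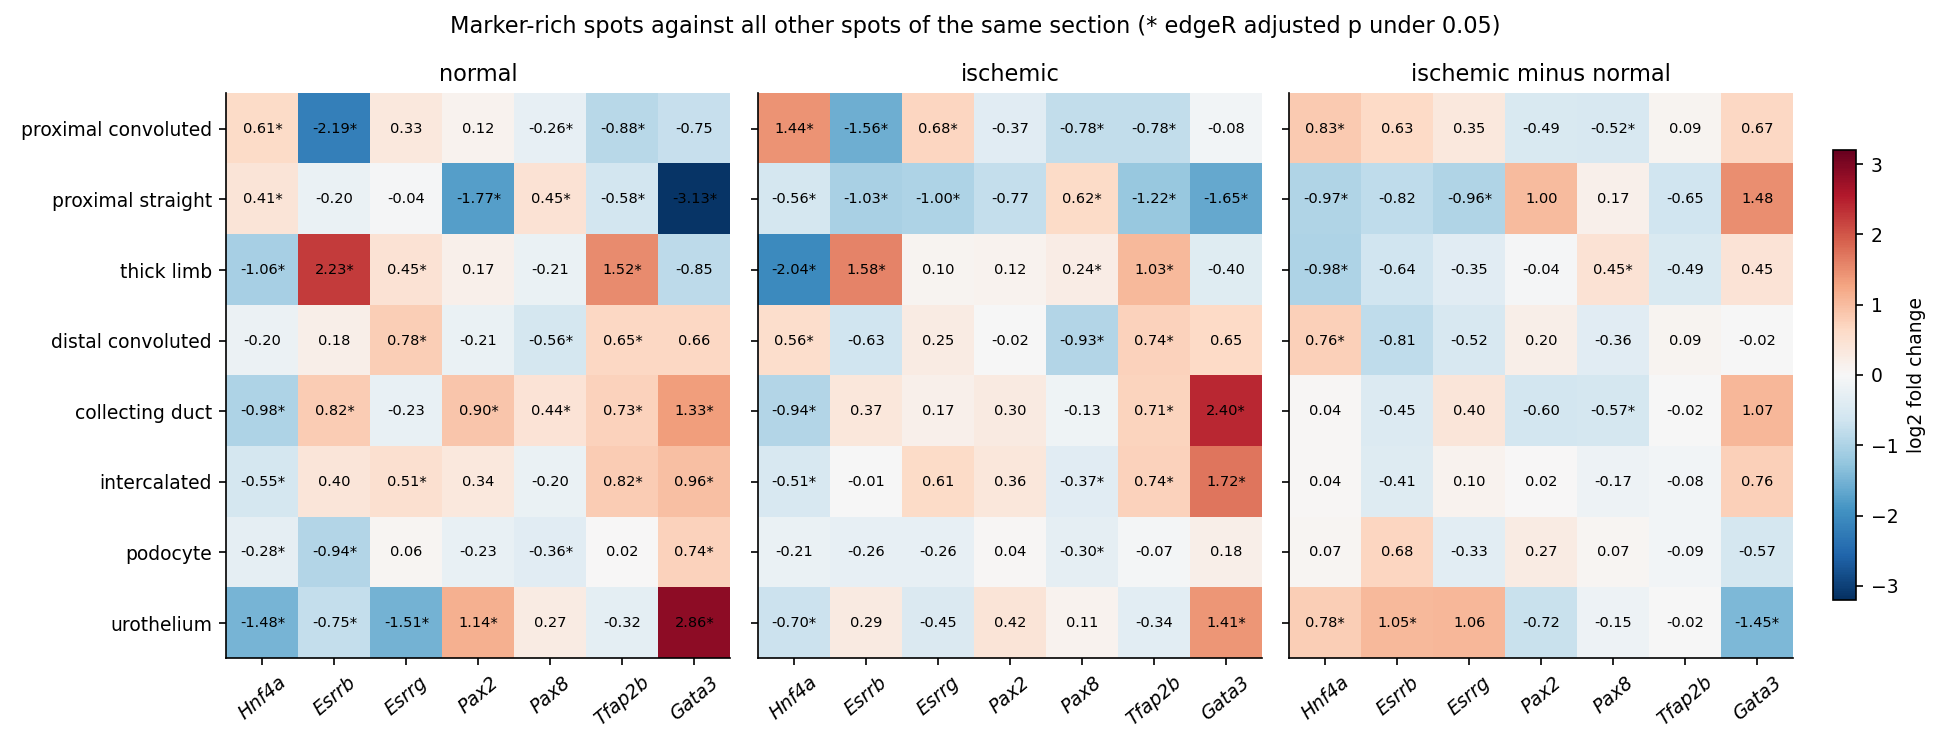
log2 fold change of 7 members (Lhx1, with few UMIs, is left out) between marker-rich spots and all other spots of the same section, for normal sections, ischemic sections and their difference, with colour from blue (lower) to red (higher). Stars mark an edgeR adjusted p under 0.05. Esrrb and Tfap2b stand out in thick limb and Gata3 in collecting duct and urothelium. Tfap2b and Gata3 are also higher in intercalated cell-rich spots. Hnf4a differs between conditions in 5 of 8 segments.

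The genes whose pattern was most like each member were read from 20 sums (5 zones in 4 sections) over 14001 genes, as a description, since sums of 1 section share a library. Hnf4a went with the urate transporter gene Slc22a12 (r = 0.990) and with Aldh2 (r = 0.990). Esrrb went with Pcsk6 (r = 0.951), Tmem207 (r = 0.949) and Gm12927 (r = 0.945), and Esrrg with Tmem116 (r = 0.918), Zkscan1 (r = 0.904) and Btnl9 (r = 0.903). Tfap2b was closest to the anion exchanger gene Slc4a2 (r = 0.918), Impa2 (r = 0.915) and Zfp618 (r = 0.911). Pax2 was closest to the epithelial mucin gene Muc1 (r = 0.935), Sec14l1 (r = 0.922) and Serinc3 (r = 0.908), and Pax8 to Trim16 (r = 0.885), Stard13 (r = 0.864) and Cthrc1 (r = 0.858). Gata3 was closest to the sodium-proton exchanger gene Slc9a4 (r = 0.942), Ociad2 (r = 0.925) and the cotransporter gene Slc12a2 (r = 0.920). Lhx1 had too few UMIs for this measure.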

How the data were processed

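Per the file headers and the labels, the authors made UMI counts per gene and spot with Space Ranger 1.3.0 on mouse build mm10 (GRCm38), and the deposited counts were raw. From them, counts were summed over all tissue spots of a section, over zones and over marker-rich spots, with the section as the unit. Each spot took the zone with the highest z-score of its marker list, pooled with up to 6 neighbours, and the top 5% of spots by urothelial markers, with at least 10 counts, were pelvis. Sums were tested with edgeR 4.0.16 (TMM, filterByExpr, quasi-likelihood, Benjamini-Hochberg over all genes, threshold 0.05) in R 4.3.3. Whole sections and each zone were fitted with condition alone, zone and segment contrasts with section as a block. The SE of a logFC was its size over the square root of F. CPM used TMM-scaled library sizes. DESeq2 1.42.0 and other alternatives were run, and the scripts were tested on simulated data. Likeness was Pearson's r of log2(CPM + 1).

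The members and gene lists were chosen with earlier results of these data known. Named genes were the 8 members, injury markers, the called genes of the transcription factor lists (up to 4 a list, largest change first) and the 3 genes most like each member with at least 100 counts. A few items are not reported here. Spot barcodes are common to all areas of a slide, and 1833 to 2137 were shared by pairs of sections. Other sections of the study were not analysed here. Promoter sequences came from RefSeq (GRCm38.p6).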

Additional observations from a re-analysis of the deposited data

Results flagged for a closer look

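The results below stood out because an effect differed between zones or conditions in a test of that difference (edgeR's quasi-likelihood test). The change of Hnf4a after ischemia differed among the 4 zones (adjusted p = 2.44e-05). Relative to cortex its logFC was different by -1.52 in outer stripe, -2.52 in inner stripe and -1.81 in inner medulla. The inner stripe value ranged from -2.85 to -1.55 under the alternatives. The inner medulla value lost its call under an alternative, as given above.

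Between conditions, the gap of Hnf4a between marker-rich and other spots differed by 0.83 in proximal convoluted tubule-rich, -0.97 in proximal straight tubule-rich, -0.98 in thick limb-rich, 0.76 in distal convoluted tubule-rich and 0.78 in urothelium-rich spots. For Pax8 it differed by -0.52 in proximal convoluted tubule-rich, 0.45 in thick limb-rich and -0.57 in collecting duct-rich spots. For Esrrg it differed by -0.96 in proximal straight tubule-rich spots, and in urothelium-rich spots Esrrb differed by 1.05 and Gata3 by -1.45. The urothelial list was at 772 and 1073 CPM in ischemic pelvis against 5765 and 6244 CPM in normal pelvis, and its part in these differences was not tested. The Hnf4a difference in urothelium-rich spots and all those of Pax8, Esrrg, Esrrb and Gata3 lost their calls under some alternatives, as given above.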

How the results depend on the processing

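Under the alternatives, 1094 values of called member results were recomputed, and all 1094 kept their sign, 929 of them past the threshold. With DESeq2 the members called in inner stripe fell to 3 from 5 and the member-by-segment calls to 46 from 75, while calls over all genes went from 5276 to 3575 of 12334 in inner stripe and from 20.2% to 9.61% over the segments. With library size alone, cortex had 3 calls in place of 5 and the zone interaction 2 in place of 1, while calls over all genes went from 6738 to 6667 and from 4660 to 4685. Without the filter on low counts, inner medulla had 2 calls in place of 1 and the interaction 5. The interaction gave 3 calls with zones from the spot alone, 2 with Cryab in the inner medulla list and 2 without boundary spots. A joint fit over zones left 3 calls in cortex, where Hnf4a lost its call and Lhx1 had no value in that fit. Taking inner stripe and inner medulla as 1 zone, an alternative chosen after seeing the data, left 3 calls in inner stripe. The cause was not tested.

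Leaving out each section in turn gave 5 to 7 calls in whole sections (40.9% to 69.3% of all genes), 2 to 5 in cortex (32.8% to 55.4%), 4 to 5 in outer stripe (57.4% to 67.1%), 2 to 6 in inner stripe (24.0% to 58.6%), 1 to 3 in inner medulla (16.8% to 35.7%), 0 to 2 in pelvis (12.5% to 26.1%), 1 to 4 for the interaction (8.96% to 39.6%), 15 to 22 for neighbouring zones (12.3% to 26.9%) and 57 to 73 for segments (15.1% to 17.7%). The 0 in pelvis was without ischemic section 1. The lone section left in a group is assumed to vary like the others.

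Replicate numbers are shared by the groups, but with 2 pairs (correlation of deviations 0.162) they mark no known pairing. With a replicate block, 7 members were called in whole sections and 2 in inner medulla, Tfap2b being added in both (adjusted p = 0.035 and 0.036), the counts in cortex, outer and inner stripe were 5 each, and pelvis kept its 2 calls.

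Signs turned for uncalled values. With library size alone, Gata3 in cortex was 0.038, Tfap2b 0.22 in outer and 0.24 in inner stripe and Pax2 0.0014 in inner medulla. Tfap2b in inner stripe was 0.037 without the filter and 0.18 with the merged zone. With zones from the spot alone, inner medulla gave Pax2 0.73 and Esrrg -0.52. Leaving out each section in turn, the range was -0.74 to 0.14 for Gata3 in whole sections, -0.32 to 0.0021 in cortex and -2.55 to 0.19 in inner medulla, and -0.36 to 0.27 for Tfap2b in inner stripe. In inner medulla it was -0.10 to 0.55 for Pax8, -1.11 to 0.36 for Esrrb and -0.70 to 0.24 for Pax2, and in pelvis -0.84 to 0.34 for Esrrb. Depth limits Lhx1 and Pax2 above all, with 90 and 432 UMIs over the 4 sections.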
